A study of Mus musculus with 4 samples.

Results

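mmu-miR-21a-5p and mmu-miR-31-5p, called miR-21a-5p and miR-31-5p below, are microRNAs (miRNAs), short RNAs that guide the silencing complex to messenger RNAs matching their seed, the stretch from base 2 to base 8. They were described here on 4 one-colour arrays from MC3T3-E1, a line of mouse osteoblastic cells grown from 1 clone out of the calvaria. The 2 probes were picked by name, of 1900 miRNA probes on each array, because both had been seen to be brighter with Wnt3a in these same data. Their levels on the Wnt3a and GFP arrays are therefore a description and carry no test.

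All cells grew in alpha-MEM with 10% FBS, the proliferation medium, and all carried a recombinant adenovirus vector. The vector overexpressed GFP in the control cells, and Wnt4, Wnt3a or Wnt5a in the others. There was 1 array of total RNA per group, so no difference below has a replicate check, and the number of arrays limits the precision. The series asks which miRNAs link Wnt with TGF-beta signalling. Wnt ligands are secreted proteins. Wnt3a is best known for stabilising beta-catenin, Wnt5a mostly signals without beta-catenin, and Wnt4 has been linked to both routes. Wnt transcripts were not measured on these arrays, so overexpression is known only from the labels.

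miR-21 is abundant in many growing cells and represses brakes on growth such as Pdcd4. In human smooth muscle cells, SMAD proteins activated by TGF-beta or BMP are known to speed the cutting of the miR-21 precursor. miR-31 is known to repress Osterix, a transcription factor that drives osteoblast differentiation. In the mouse intestine it has been tied to Wnt signalling as well.

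The sequences of the products of both loci are shown because the probes are read against them, and those of the miR-21 relatives because they could share a probe's signal. They come from RefSeq on mouse build GRCm38.p6, run 5′ to 3′, and have the seed in capitals. RefSeq held 6 of the 8 names at these loci and among their relatives.
miR-21a-5p: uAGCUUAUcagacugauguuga
miR-21a-3p: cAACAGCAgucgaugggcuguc
miR-21c: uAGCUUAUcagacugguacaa
miR-21b: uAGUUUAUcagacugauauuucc
miR-31-5p: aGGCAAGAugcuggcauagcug
miR-31-3p: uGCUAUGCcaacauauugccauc
Among the 1679 mature mouse miRNAs that RefSeq held, the miR-21a-5p seed was shared with miR-21c alone, and the miR-31-5p seed with none. RefSeq held neither miR-590-5p nor miR-590-3p, so their seeds are left out of this count. miR-21c matched miR-21a-5p over the first 15 bases. miR-21b differed from it within the seed, and their longest shared stretch was 13 bases. miR-21a-5p and miR-31-5p shared no stretch longer than 5 bases.

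miR-21a-5p lies at chr11:86584120-86584141 on the minus strand of GRCm38.p6, within the span of the protein-coding gene Vmp1, and its 3p arm at chr11:86584082-86584103. miR-31-5p lies at chr4:88910614-88910635, also on the minus strand, within the span of the long noncoding RNA gene Gm49890, and its 3p arm at chr4:88910577-88910599. The precursor hairpins are shown with both arms in capitals, since both arms of each hairpin have a probe on the array.
Mir21a hairpin: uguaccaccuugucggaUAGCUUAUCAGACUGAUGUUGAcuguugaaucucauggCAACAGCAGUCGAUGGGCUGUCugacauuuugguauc
Mir31 hairpin: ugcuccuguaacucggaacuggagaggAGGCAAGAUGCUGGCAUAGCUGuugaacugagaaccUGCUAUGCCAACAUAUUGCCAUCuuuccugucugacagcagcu
The array files name no genome build. The hairpins have 92 and 106 bases.

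Detection was set against the blank spots of each array: a spot median had to exceed their mean by more than 2 SD, both taken over the middle 95% of the blanks. These limits were 104 intensity units on the GFP array, 86.9 on Wnt4, 81.7 on Wnt3a and 111 on Wnt5a. After 2 probes that the scanner files mark as poor were left out, 616, 547, 1063 and 502 of 1898 miRNA probes were detected in the same order, and 482 on all 4 arrays. The Wnt3a array, on which both miRNAs were brightest, thus also had the most probes above its limit, and the part this plays in their differences was not tested. Levels of different probes are not set against each other, because each probe binds its target with its own strength. Mesenchymal miRNAs, the markers of the labelled cell type, were detected at 8, 9, 9 and 7 of 9 probes. Of 30 probes for liver, nerve, muscle, blood, endothelial, epithelial and pluripotent cells, 6, 3, 13 and 3 were detected, and their summed signal over blank was 334, 138, 509 and -16.3 intensity units. The brightest of the latter was miR-290a-5p, at 332, 268, 329 and 322 units, and its level did not follow the Wnt3a array.

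miR-21a-5p gave spot medians of 6669 intensity units with GFP, 6673 with Wnt4, 12510 with Wnt3a and 7619 with Wnt5a. The Wnt3a array was well above the other 3, and the GFP and Wnt4 arrays were almost equal. Over the detection limit of each array these were 64.0, 76.8, 153 and 68.6 times the limit. Among all miRNA spots the miR-21a-5p signal ranked 10th, 6th, 4th and 7th in the same order. Such a rank includes the binding strength of each probe and is no order of abundance.

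miR-31-5p gave 2017 intensity units with GFP, 1670 with Wnt4, 3071 with Wnt3a and 1917 with Wnt5a. Again the Wnt3a array stood above the other 3, while the Wnt4 array was the lowest. The signals were 19.4, 19.2, 37.6 and 17.3 times the limit. miR-31-5p ranked 42nd, 41st, 24th and 41st, so it moved up with Wnt3a and held its place on the other arrays.

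**Figure D1:**
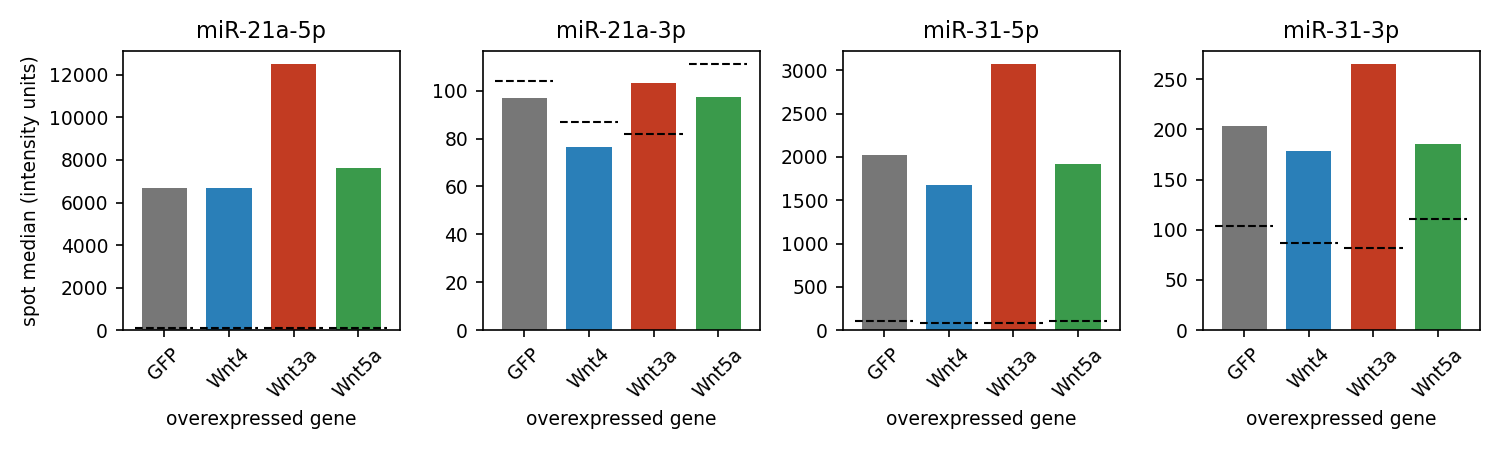
Bars give the spot median in intensity units with GFP, Wnt4, Wnt3a and Wnt5a, 1 array each, for both arms of the miR-21a and miR-31 hairpins, each with its own linear axis. Dashed lines mark the detection limit of each array (104, 86.9, 81.7 and 111 units); the Wnt3a bar is the highest in every panel, and miR-21a-3p passes the limit on that array alone.

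**Figure D2:**
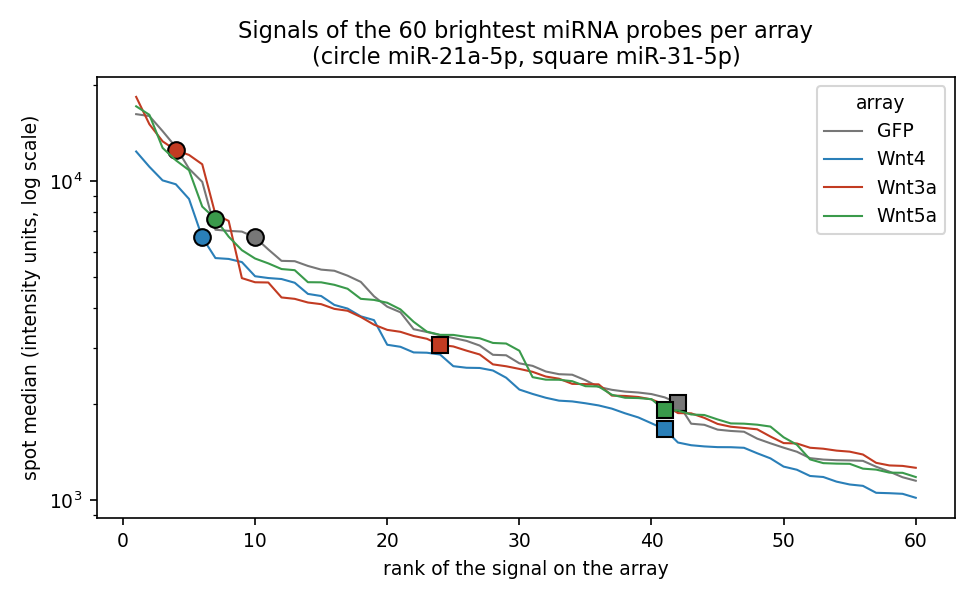
Lines give the spot medians (log axis, intensity units) of the 60 brightest miRNA probes of each array against their rank, with miR-21a-5p as circles and miR-31-5p as squares. miR-21a-5p lies at rank 10 on GFP and rank 4 on Wnt3a, and miR-31-5p at rank 42 and rank 24.

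Spot medians were next made comparable between arrays with normexp background correction (an offset of 50) and quantile normalization, which gives equally ranked signals the same value. The normalized level of miR-21a-5p was 12.43 (log2) with GFP, 13.12 with Wnt4, 13.50 with Wnt3a and 12.77 with Wnt5a. The Wnt3a level was the highest and the GFP level the lowest. The normalized level of miR-31-5p was 10.82 with GFP, 10.89 with Wnt4, 11.60 with Wnt3a and 10.89 with Wnt5a. Only the Wnt3a level of miR-31-5p stood apart, and the Wnt4 and Wnt5a levels were equal because both spots had rank 41.

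Wnt3a was compared with GFP, the contrast for which the miRNAs were picked. miR-21a-5p was 2.11-fold higher with Wnt3a, a log2 difference of 1.08 with a spot-noise standard error (SE) of 0.13. That error comes from replicated control spots within each array and covers neither hybridisations nor cultures. miR-31-5p was 1.72-fold higher, a log2 difference of 0.79 (SE 0.13). Both were among 9 of 611 miRNAs detected on both arrays that were at least 1.5-fold higher, a share of 1.47%, and miR-21a-5p was among the 3 at least 2-fold higher, a share of 0.491%. These shares are given as a description, since this contrast chose the miRNAs. The 1.5-fold call of miR-31-5p was kept in 9 of 11 alternatives and ended at 1.47-fold with scaling to the upper quartile and at 1.36-fold in the rescaled authors' deposited table. The 9 included the authors' deposited table, with 95.1% of all miRNAs at least 1.5-fold higher, and plain subtraction of the blank mean, with 21.3%. Relative to the median of all miRNAs, miR-31-5p was 1.29-fold higher in both. That value was 1.49-fold without normalization between arrays and by the median, upper quartile or control probes. The 2-fold call of miR-21a-5p was kept in only 4 of 11, and was 1.88-fold without normalization between arrays, 1.86-fold by the median, 1.80-fold by the upper quartile and 1.98-fold on control probes. The 4 included the authors' deposited table, where miR-21a-5p was 1.56-fold higher relative to the median of all miRNAs. The spot medians themselves stood in a ratio of 1.88 for miR-21a-5p and 1.52 for miR-31-5p. In RNA from whole cultures, more cells holding a miRNA and more of it per cell cannot be told apart.

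After quantile normalization, miR-21a-5p had the third and miR-31-5p the fifth largest difference with Wnt3a. miR-7036a-5p at 1.22 (log2), miR-711 at 1.18 and miR-6913-5p at 0.93 were the other 3 of the first 5. These places followed the scaling. Without normalization between arrays miR-21a-5p was 4th and miR-31-5p 10th, and after plain subtraction of the blank mean 35th and 116th of 611. In the authors' deposited table they were 41st and 122nd of 632. The spot medians of miR-7036a-5p were 385, 337, 856 and 428 on GFP, Wnt4, Wnt3a and Wnt5a, and those of miR-711 were 1336, 1247, 2865 and 1494. Both were highest on the Wnt3a array, with the other 3 arrays close together. Just inside the 1.5-fold limit lay miR-7047-5p at 0.77, miR-6937-5p at 0.73 and between them miR-6546-3p at 0.76, and just outside it miR-7042-5p at 0.57, miR-6968-5p at 0.53 and miR-7005-5p at 0.53.

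The bright end of the array held few other increases of this size, but it did hold larger decreases. miR-140-3p, the 7th brightest on the GFP array, had a log2 difference of -2.74 with Wnt3a, and miR-140-5p, the 35th, -2.18. Of 10 probes at least as bright as miR-21a-5p on the GFP array, itself included, 4 were above 0 with Wnt3a and only miR-21a-5p was 1.5-fold higher. Of 42 probes at least as bright as miR-31-5p, 18 were above 0 and the median difference was 0.00. miR-31-5p and miR-21a-5p were the 2 at least 1.5-fold higher, beside 1.47% of all 611 miRNAs. Both were picked for this contrast and each cut was set by their own signal, so these counts are a description only. Without normalization, the 40 spots of the bright control probes differed between Wnt3a and GFP by a log2 value from -0.26 to 0.18, with a median of -0.10. The miR-21a-5p spot lies in block 32 of the array and the miR-31-5p spot in block 28, and neither block holds a bright control spot.

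**Figure D3:**
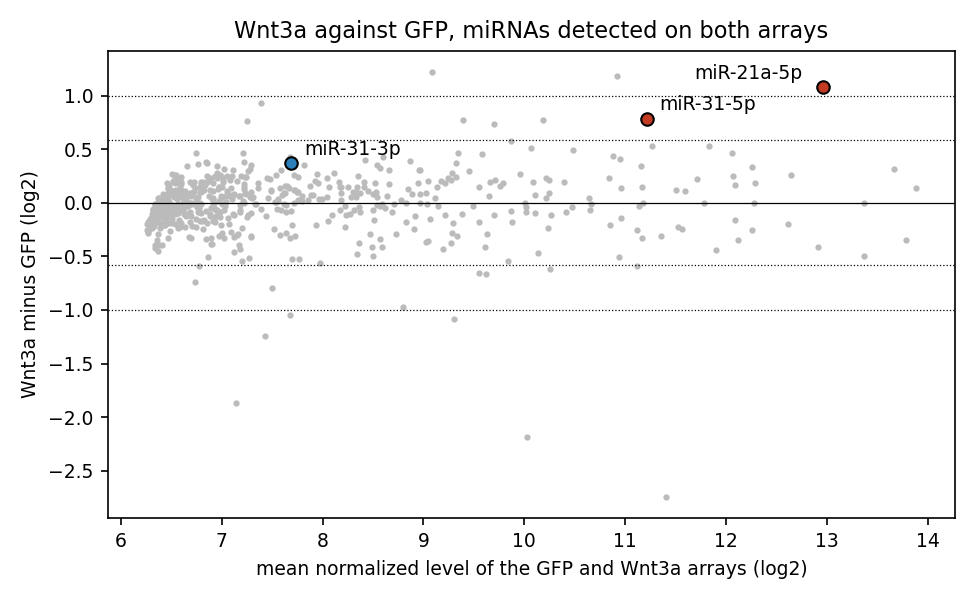
Each point is 1 of 611 miRNAs detected on both the GFP and Wnt3a arrays, with the mean normalized level of these arrays (log2) on the horizontal axis and the log2 difference Wnt3a minus GFP on the vertical axis. Dotted lines mark 1.5-fold and 2-fold differences; miR-21a-5p at 1.08 and miR-31-5p at 0.79 lie on the bright side, and miR-31-3p at 0.37 stays inside the lines.

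Wnt4 and Wnt5a were compared with the same GFP array, so these comparisons share it with the Wnt3a contrast. With Wnt4, miR-21a-5p was 1.61-fold higher after quantile normalization (log2 0.69, SE 0.10). It was the only 1 of 517 miRNAs at least 1.5-fold higher, a share of 0.193%. The spot medians of miR-21a-5p were almost equal on these arrays (6669 and 6673), and the control spots lay lower on the Wnt4 array by a median of -0.16 (log2). With scaling on those control probes the Wnt4 difference was 0.16, with cyclic loess 0.26, and with no normalization between arrays 0.00. The 1.61-fold difference thus ended with every scaling tried other than quantile normalization of the spot medians, save the one that rested on the background column.

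miR-31-5p differed little between Wnt4 and GFP. The log2 difference was 0.07 (SE 0.10), and the ratio of spot medians was 0.828. Its sign followed the scaling, from -0.29 to 0.07 without the background column. Relative to the median of all miRNAs under the same scaling, miR-31-5p lay between -0.09 and 0.06.

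With Wnt5a, miR-21a-5p was 1.27-fold higher (log2 0.35, SE 0.14), the 6th largest of 493 differences. In the whole comparison 0.203% of miRNAs were at least 1.5-fold higher, and neither miRNA was among them. Spot medians of miR-21a-5p stood in a ratio of 1.14. Relative to the median of all miRNAs this difference lay between 0.17 and 0.35 over the scalings without the background column. The log2 difference of miR-31-5p was 0.07 (SE 0.14), and its spot medians stood in a ratio of 0.950.

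Comparisons between Wnt arrays do without the shared GFP array but keep the Wnt3a array. miR-21a-5p was 1.66-fold higher with Wnt3a than with Wnt5a (log2 0.73, SE 0.17), and miR-31-5p was 1.64-fold higher (log2 0.71, SE 0.17). Both passed 1.5-fold, which 1.8% of 501 miRNAs did, but not in the rescaled authors' deposited table, which gave 1.36-fold and 1.35-fold, and miR-21a-5p also not with the background column, at 1.16-fold. Against Wnt4, miR-31-5p was 1.64-fold higher with Wnt3a (log2 0.71, SE 0.13), where 1.65% of 544 miRNAs passed 1.5-fold. This call, too, ended in the rescaled authors' deposited table, at 1.32-fold. miR-21a-5p was 1.31-fold higher than with Wnt4 (log2 0.39, SE 0.13) after quantile normalization, although its spot medians stood in a ratio of 1.87. Under the scalings by the median, upper quartile, cyclic loess or control probes that difference lay between 0.72 and 0.83. It was 0.91 without normalization between arrays, 2.13 in the authors' deposited table, 0.41 in the rescaled one and -4.45 with the background column. Between Wnt5a and Wnt4, miR-21a-5p differed by -0.34 (SE 0.15) and miR-31-5p by 0.00 (SE 0.15), where 0.823% of 486 miRNAs were at least 1.5-fold higher.

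In the order of normalized levels of miR-21a-5p, Wnt3a was first, followed by Wnt4, Wnt5a and GFP. The steps were 0.39, 0.34 and 0.35, between single arrays, and the place of Wnt4 rested on quantile normalization, since by spot median it was level with GFP and below Wnt5a. For miR-31-5p, Wnt3a was first and the other 3 arrays lay within 0.07 (log2). The first place of Wnt3a was kept by both miRNAs under every scaling that left out the background column.

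**Figure D4:**
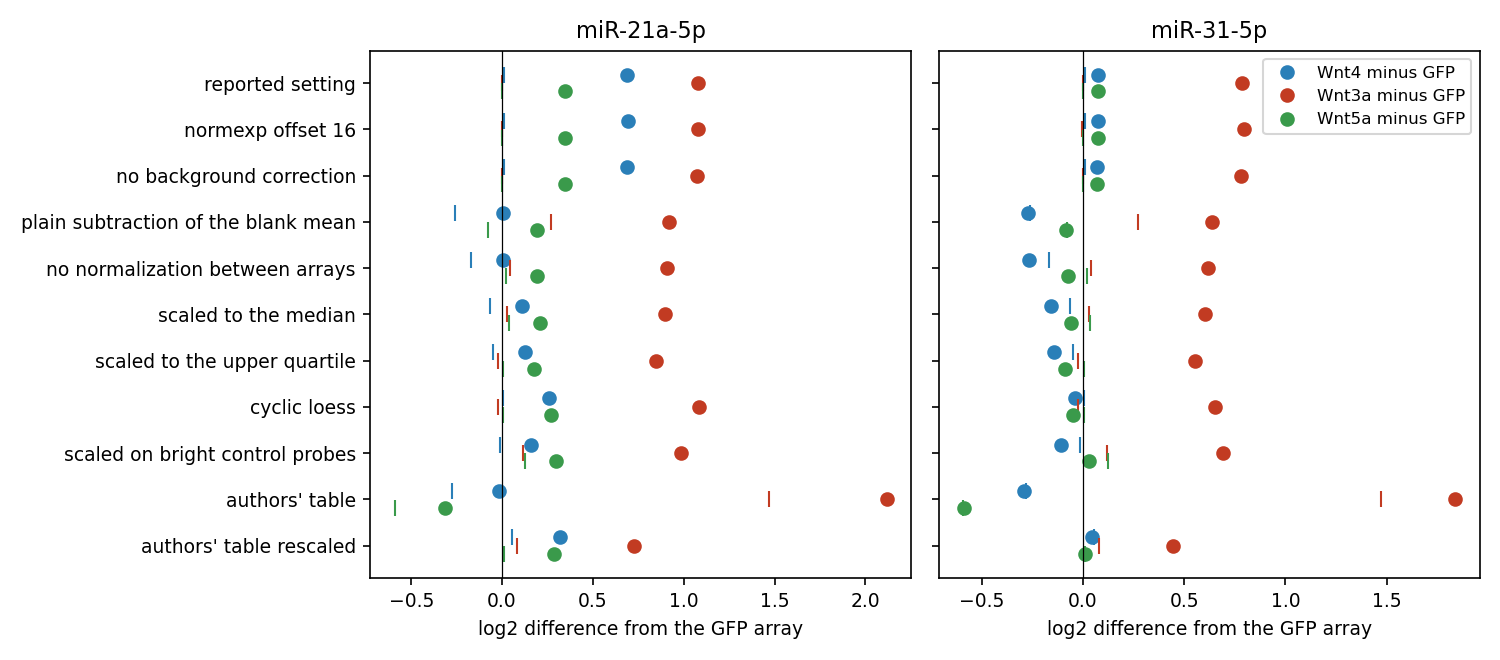
Points give the log2 difference of miR-21a-5p (left) and miR-31-5p (right) from the GFP array under each scaling, coloured by array, and short vertical marks the median difference of all miRNAs under it. The Wnt3a points lie to the right of their marks throughout, by 0.65 to 1.11 for miR-21a-5p and by 0.37 to 0.80 for miR-31-5p, whereas the Wnt4 points of miR-21a-5p run from -0.015 to 0.69; the setting with the background column is left out.

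The other arm of each hairpin was not used to pick the miRNAs. miR-31-3p, the arm opposite miR-31-5p, gave 204, 179, 265 and 185 intensity units with GFP, Wnt4, Wnt3a and Wnt5a, above the limit on all 4. It was highest on the Wnt3a array. The log2 difference from GFP was 0.37 with Wnt3a (1.29-fold, SE 0.13), the 30th of 611, and so did not reach 1.5-fold. It was 0.06 with Wnt4 and -0.16 with Wnt5a. The difference with Wnt3a was above 0 under all the other settings run, from 0.16 to 1.97, while those with Wnt4 and Wnt5a were not of 1 sign.

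miR-21a-3p, the arm opposite miR-21a-5p, gave 96.8, 76.5, 103 and 97.5 intensity units. It was above the limit on the Wnt3a array alone, at 1.26 times the limit. That signal was still below the limits of the GFP and Wnt5a arrays, so no fold is given for this arm. miR-21c, which shares its seed and first 15 bases with miR-21a-5p, gave 89.0, 70.7, 78.1 and 86.3 units. This was below the limit on all 4 arrays, as were miR-21b, miR-590-5p and miR-590-3p, the remaining relatives of miR-21.

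miRNAs whose pattern was most like each of the 2 were found by the Euclidean distance over the 3 log2 differences from GFP, among 482 miRNAs detected on all 4 arrays. The nearest to miR-31-5p was miR-7047-5p at a distance of 0.07 (log2), followed by miR-6769b-5p and miR-6937-5p, each at 0.11. miR-6546-3p, at 0.14, and miR-7042-5p, at 0.25, came next. miR-7047-5p gave 544, 511, 875 and 565 intensity units, again with 1 high array and 3 that were close. The nearest to miR-21a-5p were farther off, with miR-711 at 0.62, miR-6546-3p at 0.63, miR-7036a-5p at 0.67, miR-7047-5p at 0.68 and miR-6937-5p at 0.69. miR-31-5p was the 6th nearest to miR-21a-5p, at 0.74, whereas miR-21a-5p was only the 197th nearest to miR-31-5p. The 5 nearest to miR-21a-5p had Wnt4 differences from 0.05 to 0.21, below its 0.69. The distances use 3 differences from 1 shared array and the quantile scale that sets the Wnt4 value.

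**Figure D5:**
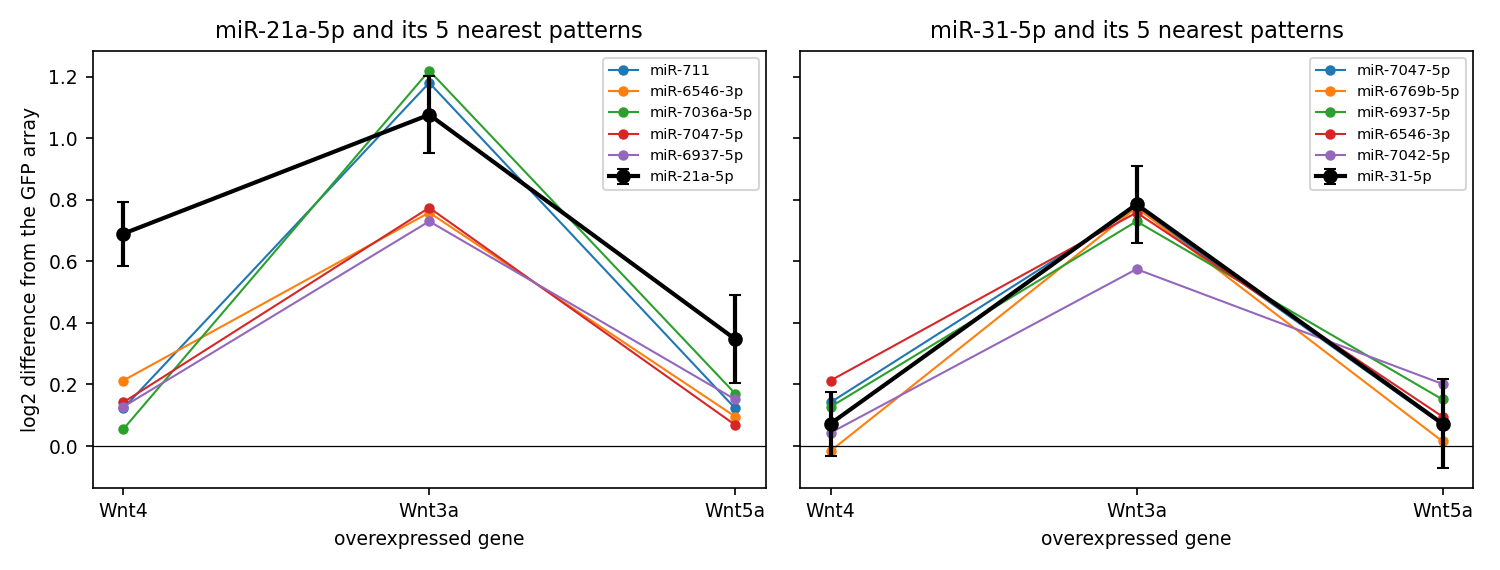
Lines join the log2 differences from the GFP array with Wnt4, Wnt3a and Wnt5a for miR-21a-5p (left) and miR-31-5p (right), in black with bars of 1 spot-noise SE, and for the 5 miRNAs nearest to each, in colour. The coloured lines follow the black line of miR-31-5p closely (distances of 0.07 to 0.25), while those beside miR-21a-5p lie below it with Wnt4.

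CAGAC is a motif that SMAD proteins are known to recognise in the stem of some miRNA precursors of human cells, miR-21 and miR-199a among them. Its letters were searched in the mature sequences. In miR-21a-5p it stood at bases 9 to 13, in capitals here.
miR-21a-5p: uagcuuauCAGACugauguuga
miR-31-5p did not hold it. Of 1679 mature miRNAs, 28 (1.67%) held CAGAC and 61 (3.63%) its reverse complement GUCUG, and of 1005 hairpins 80 (7.96%) and 143 (14.2%) did. With Wnt3a, 8 probes for miRNAs with CAGAC were detected on both arrays, 3 of them above 0, with a median log2 difference of -0.03, beside 0.00 for 493 without the motif. miR-21a-5p, picked for this contrast, was the 1 of the 8 that was at least 1.5-fold higher, beside 1.47% of all 611 miRNAs. Of the others, miR-199a-5p had a difference of -0.03 and miR-214-3p of -0.46. These matches describe letters only.

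The 2 miRNAs were also read beside lists of related miRNAs, which like them were chosen with results of these data known. TGF-beta-responsive miRNAs, to which miR-21a belongs, had 15 of 41 probes detected on both the GFP and Wnt3a arrays. Of these 6 were above 0 and 9 below, a median of -0.03 beside 0.00 for all miRNAs, and with 1 higher and 2 lower by 1.5-fold or more. Of all 611 miRNAs, 2.29% were lower to that extent. The higher one was miR-21a-5p, and the others were both arms of miR-140, a cartilage miRNA, with miR-140-3p at 7049, 5582, 1135 and 5727 intensity units on GFP, Wnt4, Wnt3a and Wnt5a. miR-143-3p, a smooth muscle and fibroblast miRNA, gave 1275, 1144, 1813 and 1303 units, a difference of 0.49 with Wnt3a. miR-29a-3p, which represses collagen genes, had -0.31, and miR-199a/b-3p, a mesenchymal miRNA, 0.34. miR-21a-5p, picked for this contrast, was the 1 member of the list at least 1.5-fold higher with Wnt3a, beside 1.47% of all 611 miRNAs. Both arms of miR-140 were lower.

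Wnt-linked miRNAs, with both miR-21a and miR-31, had 22 of 61 probes detected. Of these 14 were above 0 and 7 below. The median was 0.13, or 0.08 without the 2 miRNAs described here, beside 0.00 for all miRNAs. miR-27b-3p had 0.35, miR-27a-3p 0.00 and miR-29a-3p -0.31. No other listed miRNA reached 1.5-fold in either direction with Wnt3a, beside 1.47% of all 611 miRNAs higher and 2.29% lower.

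Growth-linked oncogenic miRNAs had 20 of 34 probes detected, 13 above 0 and 7 below, with a median of 0.15, or 0.13 without miR-21a-5p and miR-31-5p. miR-21a-5p and miR-31-5p, picked for this contrast, were the only ones at least 1.5-fold higher, beside 1.47% of all miRNAs, and none was 1.5-fold lower, beside 2.29%. miR-17-5p, of the miR-17-92 cluster that drives proliferation, had 0.23, and miR-93-5p, of a related cluster, -0.12. miR-221-3p, which represses the cell cycle inhibitor p27, gave 718, 564, 545 and 604 intensity units, a difference of -0.43.

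miR-221-3p was also in the list of miRNAs linked to AP-1, the transcription factor of the Fos and Jun proteins. Of its 10 probes 5 were detected, 3 of them from the miR-21a and miR-31 hairpins, all above 0, and 2, miR-221-3p and miR-222-3p, below 0. The list median of 0.37 became -0.21 without miR-21a-5p and miR-31-5p. Both were picked for this contrast. The other detected probes of this list were miR-31-3p at 0.37, miR-222-3p at -0.21 and miR-221-3p at -0.43, too few to show a split by hairpin. With Wnt4 and Wnt5a no member of any of these 4 lists other than miR-21a-5p with Wnt4 differed by 1.5-fold or more. In these comparisons 0.58% and 0% of all miRNAs were lower to that extent.

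The authors' deposited table of processed intensities lists miR-21a-5p at 2662, 2635, 11553 and 2144 and miR-31-5p at 780, 637, 2785 and 519 on GFP, Wnt4, Wnt3a and Wnt5a. In it the Wnt3a values are 4.34-fold and 3.57-fold those of GFP, larger than in the scanner files. The listed values could be rebuilt, with a largest error of 0.0988 units, by taking the blank mean from each spot median and multiplying by a factor that was the same for all spots of an array. The factors were 0.405, 0.399, 0.929 and 0.285, so the Wnt3a array was raised relative to GFP by 1.20 (log2) for every miRNA. The median listed value was 25 on each array, although 638, 568, 1112 and 515 miRNAs were listed. In the authors' deposited table the median difference of all miRNAs between Wnt3a and GFP was 1.47 (log2), beside 2.12 for miR-21a-5p and 1.84 for miR-31-5p.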

How the data were processed

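miRNA levels were measured on 4 one-colour arrays, 1 per group. Per the labels' protocols, total RNA was labelled with Hy5 by a kit for LNA arrays, and per the file headers each array was scanned at 635 nm and read at 3 gains. The deposited scanner files hold the raw median intensity of each spot. The gain settings, scanner and genome build are not given in the sources used here, so values without normalization between arrays assume equal gains.

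Spot medians and the deposited background column rose together across spots (Pearson's r of log2 values between 0.942 and 0.985), so that column was no local background and was used in an alternative only. In R 4.3.3, limma 3.58.1 ran normexp with an offset of 50 on all spot medians, then quantile normalization on the 1898 miRNA probes without controls. Python 3.11.15 with numpy 2.4.6, pandas 2.3.3 and matplotlib 3.10.9 did the rest. A log2 difference between arrays needs detection on both, and no p-value was computed. The steps were tested on data simulated from the levels of the GFP array. This did not copy the larger number of probes detected on the Wnt3a array, and is no check of the differences reported here. A spot-noise SE came from 5 bright control probes with 8 spots each.

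Besides the 2 miRNAs, the text names all probes of their loci and relatives, the 5 nearest patterns, and from each list up to 4 members of the highest GFP level and the one with the largest Wnt3a difference. Others (neighbours of the 1.5-fold limit, miRNAs with CAGAC, miR-222-3p, miR-17-5p, miR-93-5p) were named after their values were seen. 1 further list is not reported here. The members and lists were chosen with earlier results of these data known. Alternatives changed the background correction, the normalization and the detection limit, or used the deposited table.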

Additional observations from a re-analysis of the deposited data

How the results depend on the processing

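With Wnt3a, miR-21a-5p stayed above GFP in 10 of 11 alternatives and miR-31-5p in 11 of 11. For miR-21a-5p with Wnt3a the authors' table gave 2.12, the same table rescaled to the median of the miRNAs listed on all arrays 0.73, and the background column -1.66 in place of 1.08. For miR-31-5p the table gave 1.84 and after rescaling 0.45 in place of 0.79. With Wnt4, miR-21a-5p had 0.0043 after plain subtraction of the blank mean, 0.0039 without normalization, 0.11 by the median, 0.13 by the upper quartile, 0.26 by loess, 0.16 on control probes, -0.015 in the authors' values, 0.32 in the rescaled ones and 2.79 with the background column, against 0.69 as reported. With Wnt5a, it had -0.31 in the table and -1.87 with the background column. miR-31-5p with Wnt4 had -0.27 after plain subtraction, -0.26 without normalization, -0.16 by the median, -0.14 by the upper quartile and -0.29 in the table. With Wnt5a it had -0.59 in the table and -0.48 with the background column. The causes were not tested.

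The number of miRNAs at least 1.5-fold higher with Wnt3a, 9 as reported, was 130 after plain subtraction, 31 with the background column, 16 on control probes, 601 in the table and 70 rescaled. With Wnt4, 1 became 2 with an offset of 16 or plain subtraction, 62 with the background column, 4 in the table or without a filter on dim probes, 12 rescaled, and 0 unnormalized, by median, upper quartile, loess or control probes. With Wnt5a, 1 became 2 with an offset of 16, on control probes or without the filter, 4 after plain subtraction, 29 with the background column and 11 rescaled. In the table the median over all miRNAs moved by 1.47 (log2) with Wnt3a, -0.28 with Wnt4 and -0.59 with Wnt5a. It moved by 0.27, -0.26 and -0.08 after plain subtraction, by -0.17 with Wnt4 unnormalized, and by 0.12 (Wnt3a) and 0.13 (Wnt5a) on control probes. The other 60 values of these results stayed within a limit set from the spot-noise SE or, for counts, moved less than 1.5 times. The limit was wider than 1 SE, at 0.246 (log2) for Wnt3a against GFP, 0.203 for Wnt4 and 0.282 for Wnt5a. Some of the 60 thus moved by more than 1 SE. With Wnt3a and the upper quartile, miR-21a-5p had 0.85 in place of 1.08 and miR-31-5p 0.55 in place of 0.79. Of the added comparisons between Wnt arrays, 43 values stayed within limits set in the same way and 23 did not. These limits were 0.264 for Wnt3a against Wnt4, 0.328 for Wnt3a against Wnt5a and 0.298 for Wnt5a against Wnt4.

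No paired analysis was possible because each group had 1 array. Nor was there a replicate to leave out. Signal over background did not limit the 2 miRNAs themselves, which lay at 17.3 times the limit or more on each array. It limits miR-21a-3p and the miR-21 relatives, whose values below the limit have no order.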
